A study of Mus musculus with 75 samples.

Results

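The 10 genes described here are markers of macrophages and monocytes and the 3 chains of complement component C1q, namely *Adgre1*, *Cd68*, *Mrc1*, *Ccr2*, *Csf1r*, *Cx3cr1*, *C1qa*, *C1qb*, *C1qc*, and *Lyz2*. They were taken by symbol from the 32245 genes of the deposited count table, and each of the 10 was found once. RNA of whole kidneys from adult mice was sequenced 3 days after unilateral ureter obstruction (UUO), in which 1 ureter is ligated and the kidney above it is obstructed. The contralateral (CL) kidney served as the comparison. The 75 libraries fall into 12 groups in 3 arms. In the first arm, mice received ABTAA (ABT), an antibody that binds angiopoietin-2 and activates the endothelial receptor TIE2, or control IgG, with 8 IgG CL, 8 IgG UUO, 7 ABT CL, and 7 ABT UUO libraries. In the second arm, floxed *Veptp* (gene symbol *Ptprb*, a phosphatase that dampens TIE2) was deleted by a tamoxifen-inducible Cre driven by *Cdh5*, thus in endothelial cells (VeKO, 6 CL and 8 UUO), and the controls (VeWT, 7 CL and 8 UUO) were uninduced *Veptp* wt/lox mice that carried the same Cre. In the third arm, floxed *Pdgfb* was deleted in the whole body by an inducible Cre under the *Actb* promoter (PbKO, 4 CL and 4 UUO), with Cre-negative *Pdgfb* wt/lox or lox/lox littermates as controls (PbWT, 4 CL and 4 UUO). Kidneys of 2 sham-operated mice are among the PbWT CL libraries and are not marked in the labels. The labels put more UUO libraries in VeWT than the methods count mice of that genotype, and all of them were used as labelled. Both sexes were used.

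Macrophages arise in the kidney from resident cells seeded before birth and from blood monocytes that enter after injury. *Adgre1* encodes F4/80 and *Cd68* a lysosomal glycoprotein, both general macrophage markers, and *Lyz2* encodes the lysozyme of myeloid cells. CCR2 is the receptor that brings monocytes out of the bone marrow and into tissue towards the chemokine CCL2, CX3CR1 is the fractalkine receptor of patrolling monocytes and many resident macrophages, and CSF1R is the growth factor receptor on which macrophages depend. *Mrc1* encodes the mannose receptor CD206, often used as a marker of tissue-repair macrophages. C1q starts the classical complement pathway by binding immune complexes and dying cells, and its A, B, and C chains are made mainly by macrophages. In bulk kidney RNA, fewer cells of a type and less RNA per cell cannot be told apart.

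In the GENCODE vM21 annotation of the build the counts were made on (mm10, GRCm38), the 3 C1q genes lie side by side on the minus strand of chromosome 4, *C1qb* at chr4:136880129-136886187, *C1qc* at chr4:136889804-136893065, and *C1qa* at chr4:136895917-136898803. *Cx3cr1* (chr9:119901616-120069879, minus strand) and *Ccr2* (chr9:124101950-124113557, plus strand) share chromosome 9. *Mrc1* is at chr2:14229392-14332057 on the plus strand, *Lyz2* at chr10:117277331-117282321 on the minus strand, *Cd68* at chr11:69664213-69666153 on the minus strand, and *Adgre1* at chr17:57358691-57483527 on the plus strand. Exons of *Csf1r* overlap those of *Hmgxb3* and exons of *Cx3cr1* those of *Gm33858*, in both cases on the opposite strand, so that without a stated strand setting some of their reads cannot be told apart. *Gm33858* held 26 counts in all libraries together against 922 for *Cx3cr1*, and *Hmgxb3* held 1511 against 4704 for *Csf1r*. *Lyz2* has a neighbouring near-identical copy, *Lyz1*, with 778 counts against 13885, and how far the reads of these genes were mixed was not tested.

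The promoters of 4 members are shown because these genes rose together in the obstructed kidneys and because each holds the hexamer bound by the macrophage transcription factor PU.1 (GAGGAA, or TTCCTC on the other strand). The sequences are RefSeq entries (GRCm38.p6), read 5′ to 3′ along the gene's strand, with the hexamer in capitals. The 250 bases before the start were searched in full, and what is printed ends where an annotated exon begins.
*C1qb*, chr4:136886201-136886450, minus strand: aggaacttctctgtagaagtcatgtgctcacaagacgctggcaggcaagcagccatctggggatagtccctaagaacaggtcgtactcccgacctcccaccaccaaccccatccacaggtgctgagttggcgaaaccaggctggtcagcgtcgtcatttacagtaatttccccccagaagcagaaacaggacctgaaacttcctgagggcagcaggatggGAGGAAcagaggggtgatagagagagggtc
*C1qc*, chr4:136893066-136893164, minus strand: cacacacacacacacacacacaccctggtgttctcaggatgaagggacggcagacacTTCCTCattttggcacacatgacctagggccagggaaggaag
*Cd68*, chr11:69666171-69666420, minus strand: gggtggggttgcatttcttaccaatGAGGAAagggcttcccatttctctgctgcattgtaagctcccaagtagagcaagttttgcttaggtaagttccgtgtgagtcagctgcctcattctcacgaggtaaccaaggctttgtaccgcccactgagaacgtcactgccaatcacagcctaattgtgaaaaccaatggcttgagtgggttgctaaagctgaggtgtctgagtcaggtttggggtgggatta
*Mrc1*, chr2:14229164-14229391, plus strand: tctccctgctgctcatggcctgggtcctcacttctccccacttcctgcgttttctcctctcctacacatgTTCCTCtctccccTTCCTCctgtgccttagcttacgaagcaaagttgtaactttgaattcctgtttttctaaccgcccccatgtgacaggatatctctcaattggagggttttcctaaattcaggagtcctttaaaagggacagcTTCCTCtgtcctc
Of the 7 members with an entry in the promoter table, these 4 held the hexamer within the 250 bases searched, while *Cx3cr1*, *Ccr2*, and *Lyz2* did not. The same hexamer was found in 23.3% of the 32851 promoters of that length. A match of letters is a description and not a binding site.

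Library totals ran from 172827 to 2341800 counts, with a median of 757897, so that 1 count is worth 0.359 to 7.16 CPM. CPM, the unit of all levels here, is the count over the library total after TMM scaling, a correction for composition. Summed over all libraries the members held from 922 (*Cx3cr1*) to 13885 (*Lyz2*) counts, and *Cd68* was at 0 counts in 11 of the 75 libraries and under 10 counts in 51. *C1qb*, *Csf1r*, and *Lyz2* had at least 1 count in every library. All 10 members passed the filter on low counts in each arm, but they passed it through the UUO libraries: with CL libraries alone, 3 members passed for ABTAA, 4 for *Veptp*, and 2 for *Pdgfb*. The deleted genes were checked first. *Ptprb* averaged 33.3 ± 18.9 CPM (SD, n = 8) in VeKO UUO and 51.2 ± 27.9 (n = 8) in VeWT UUO, or -0.69 ± 0.33 (SE) on the log2 scale (adjusted p = 1.00). *Pdgfb* averaged 37.1 ± 3.15 CPM in PbKO UUO and 52.9 ± 6.63 in PbWT UUO (-0.47 ± 0.21, adjusted p = 0.124), and 19.0 ± 3.98 in PbKO CL against 10.4 ± 6.71 in PbWT CL. Neither deletion was called in these counts. The paper reports reduced *Pdgfb* expression in both kidneys of PbKO mice, so the CL means here run the other way. Counts over whole genes need not show a deletion of single exons, and exons were not examined. In 24 of the 75 libraries at least 10 counts each of *Xist* and of Y-linked genes were present, in all 4 of PbKO UUO, 2 of 4 of PbWT UUO, and 0 of 4 of PbKO CL. Whether each library holds RNA of 1 mouse alone was not tested. Library names come in 2 forms, a plain one of a letter and a number (45 libraries) and a linked one with a low line between them (30 libraries). The forms differed in composition, most in the *Veptp* arm, where *Gm42418* and *AY036118*, which overlap ribosomal RNA repeats, took 9.18% to 21.8% of the counts in the 13 plain and 0.325% to 0.778% in the 16 linked libraries. What the forms stand for is not given in the labels.

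UUO against CL kidneys asks how the markers change with obstruction. In IgG-treated mice the 10 members rose, with log2 fold changes from 0.59 (*Csf1r*) to 3.24 (*Ccr2*) and a median of 1.97, while the median of all 9579 genes tested was 0.01. At an adjusted p under 0.05 (quasi-likelihood test of edgeR, adjusted by Benjamini-Hochberg over all genes of the arm), 16.0% of all genes were called higher in this comparison. In VeWT mice 9 of 10 members rose, with 10.0% of all genes called higher, and in PbWT mice 10 of 10, with 17.9% called higher. The exception in VeWT was *Csf1r*. Without TMM scaling the all-gene median was 0.21 in IgG, 0.13 in VeWT, and 0.40 in PbWT mice, instead of 0.01, -0.01, and 0.04. Over all genes, 1531 higher and 1759 lower calls in IgG then became 2390 and 1123, 1195 and 999 in VeWT became 1367 and 550, and 1957 and 2119 in PbWT became 4336 and 1166. The numbers of members called were 10, 9, and 10 with either scaling. Most members passed the filter through the UUO libraries, where they are high, so these counts are not independent of the filter. With the IgG libraries fitted alone, 5 members passed it and 5 were called higher, beside 1256 of 7325 genes.

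**Figure D1:**
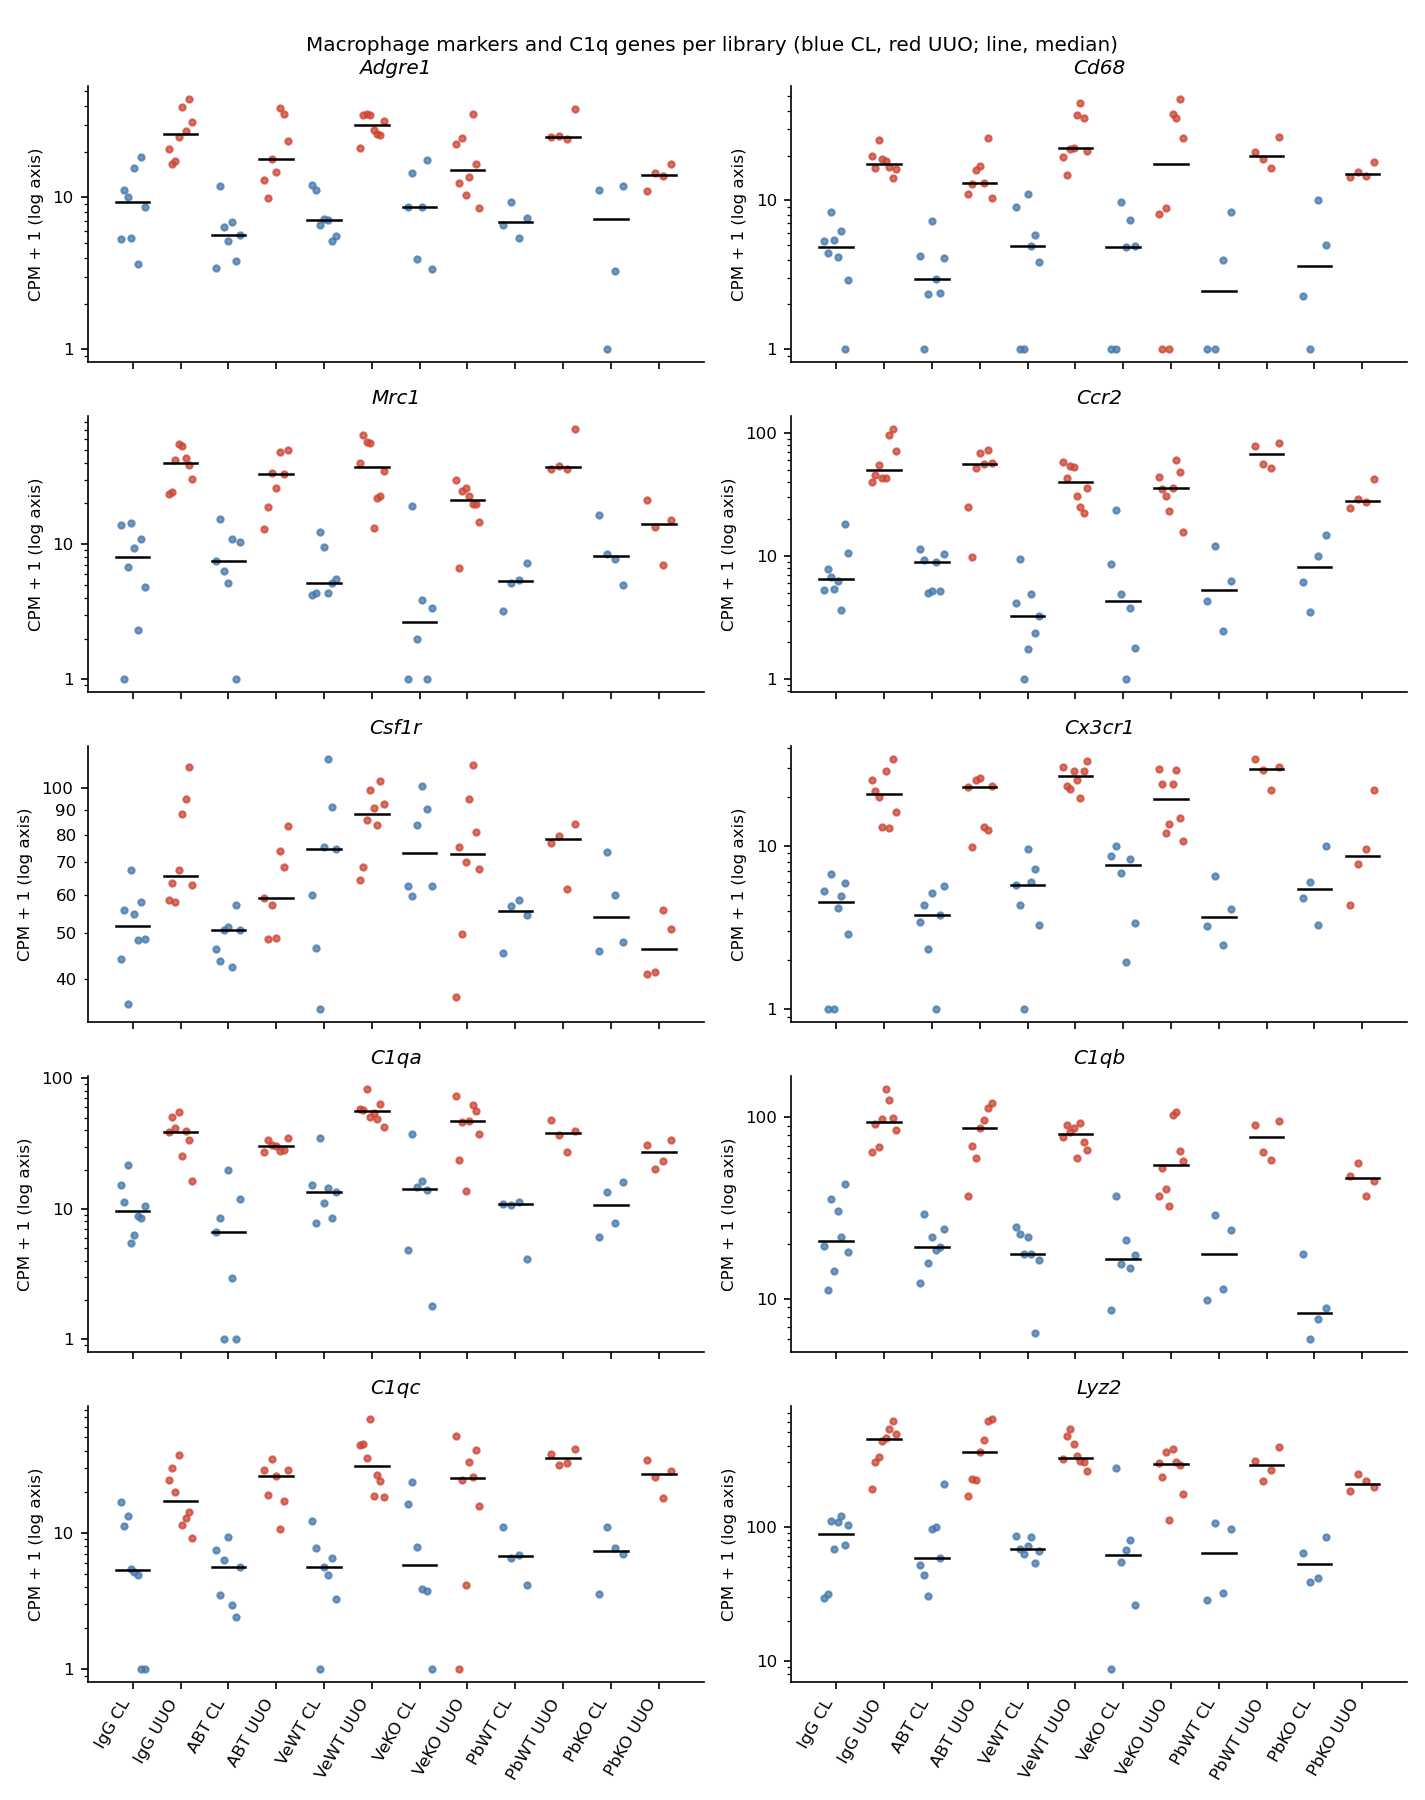
CPM + 1 of each member in each of the 75 libraries on a log axis, by group, with CL in blue, UUO in red, and the group's median as a line. For *C1qb* in IgG mice the CL libraries end at 42.1 and the UUO libraries start at 63.1 CPM, while the CL and UUO libraries of *Csf1r* overlap in every group but PbWT.

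The general markers rose in all 3 control groups. *Adgre1* was at 2.63 to 17.3 CPM (median 8.34) in IgG CL and 15.6 to 43.8 (median 25.3) in IgG UUO libraries, and it rose by 1.58 ± 0.33 (SE) on the log2 scale (adjusted p = 0.000277). In PbWT mice its 4 CL libraries held 5.54, 8.37, 4.42, and 6.28 CPM and its 4 UUO libraries 23.8, 24.4, 23.4, and 37.2 CPM, a log2 fold change of 2.09 ± 0.34 (adjusted p = 2.73e-05). These ranges overlapped slightly in IgG mice and were apart in PbWT and VeWT mice. Here and below, overlap was looked at in the genes described and not over all genes. *Cd68* ran from 0 to 7.41 CPM (median 3.86) in IgG CL and from 13.2 to 24.4 (median 16.6) in IgG UUO, 1.98 ± 0.33 on the log2 scale (adjusted p = 9.33e-06), with no overlap. In VeWT it went from 0 to 10.1 CPM in CL to 13.7 to 44.3 in UUO (2.48 ± 0.54, adjusted p = 0.0011). *Lyz2* ran from 28.7 to 118 CPM (median 86.4) in IgG CL and from 190 to 605 (median 442) in IgG UUO, a change of 2.35 ± 0.34 (adjusted p = 1.19e-06). Its copy *Lyz1* moved with it, from a mean of 3.06 CPM in IgG CL to 14.2 in IgG UUO, and how much of this is shared reads was not tested.

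The monocyte chemokine receptor *Ccr2* had the largest fitted rise of the 10 members in each control group. In PbWT mice this order rests on 1 library, since *Cd68*, at 0, 0, 2.95, and 7.33 CPM in CL and 20.1, 17.9, 15.5, and 25.5 in UUO, rose by 2.74 ± 0.50 (adjusted p = 8.32e-05) but by 4.27 without PbWT CL replicate 4, above *Ccr2*. *Ccr2* was at 2.63 to 17.3 CPM (median 5.51) in IgG CL and 38.6 to 107 (median 49.2) in IgG UUO, 3.24 ± 0.34 on the log2 scale (adjusted p = 3.19e-09). In VeWT mice 0 to 8.43 CPM stood against 21.5 to 57.2, a change of 3.71 ± 0.55 (adjusted p = 1.03e-05). The PbWT CL libraries held 3.33, 11.2, 1.48, and 5.24 CPM and the PbWT UUO libraries 77.2, 55.4, 51.2, and 82.3 CPM, a change of 3.62 ± 0.34 (adjusted p = 9.85e-09). CL and UUO libraries did not overlap in any of the 3 groups. *Cx3cr1*, the fractalkine receptor, rose by 2.44 ± 0.35 in IgG, 2.36 ± 0.34 in VeWT, and 3.11 ± 0.42 in PbWT mice on the log2 scale (adjusted p = 6.36e-07, 8.64e-06, and 1.82e-06), again with no overlap. Within a library, the log2 ratio of *Ccr2* to *Cx3cr1* (each CPM + 1) went from 1.13 ± 1.27 (SD, n = 8) in IgG CL to 1.52 ± 0.78 (n = 8) in IgG UUO, from -0.52 ± 1.16 (n = 7) to 0.55 ± 0.54 (n = 8) in VeWT, and from 0.48 ± 0.37 to 1.21 ± 0.20 (n = 4 each) in PbWT. None of these passed an exact 2-sided permutation test adjusted over 18 ratio tests (adjusted p = 0.641 in IgG, and 0.109 in VeWT and in PbWT, where 4 against 4 cannot go below an unadjusted p of 0.0286).

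*Csf1r* stood apart from the rest by its small change. It was at 34.6 to 66.6 CPM (median 50.6) in IgG CL and 56.9 to 110 (median 64.5) in IgG UUO, 0.59 ± 0.16 on the log2 scale (adjusted p = 0.00293). This call was lost in the plain libraries alone (0.44, adjusted p = 0.144) and after all libraries were thinned to the depth of the shallowest (0.32, adjusted p = 0.294). The VeWT values were 33.6 to 114 CPM in CL and 63.4 to 102 in UUO (0.25 ± 0.21, adjusted p = 0.483). In PbWT, 44.3, 55.8, 57.5, and 53.4 CPM in CL stood against 75.9, 78.6, 60.7, and 83.3 in UUO (0.49 ± 0.16, adjusted p = 0.0202). Its lowest UUO library there, replicate 3, was just above its highest CL library. The PbWT call was lost without PbWT CL replicate 1 (0.41, adjusted p = 0.0712), PbWT UUO replicate 2 (0.47, adjusted p = 0.0522), or PbWT UUO replicate 4 (0.43, adjusted p = 0.0678). Deviations of *Csf1r* from the group means, taken within each form of library name, also did not follow the other members: across 75 libraries Pearson's r with the mean of the other 9 was -0.06, against 0.23 (*Mrc1*) to 0.69 (*Lyz2*) for each of the other members.

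*Mrc1* rose by 2.38 ± 0.38 in IgG (0 to 13.3 CPM in CL, 22.6 to 54.3 in UUO), 2.86 ± 0.51 in VeWT (3.18 to 11.2 in CL, 12.2 to 63.6 in UUO), and 3.29 ± 0.39 in PbWT mice on the log2 scale (adjusted p = 4.71e-06, 0.000121, and 2.84e-07). The PbWT UUO libraries held 35.1, 36.9, 34.9, and 70.5 CPM, so replicate 4 was high beside 3 close values. The log2 ratio of *Mrc1* to *Adgre1* within a library was higher in UUO by 1.03 in IgG, 0.55 in VeWT, and 1.11 in PbWT mice, with adjusted p = 0.193, 0.368, and 0.109 by the exact permutation test.

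The 3 C1q chains rose together. *C1qb*, the chain with the most counts, was at 10.3 to 42.1 CPM (median 19.8) in IgG CL and 63.1 to 143 (median 93.9) in IgG UUO, a log2 fold change of 1.95 ± 0.24 (adjusted p = 9.11e-08). In PbWT mice 8.87, 27.9, 10.3, and 23.0 CPM in CL stood against 90.3, 63.1, 57.5, and 94.0 in UUO (2.10 ± 0.27, adjusted p = 1.12e-06). *C1qa* rose by 1.68 ± 0.35 in IgG, 2.16 ± 0.39 in VeWT, and 2.16 ± 0.32 in PbWT mice on the log2 scale (adjusted p = 0.000211, 0.00017, and 6.09e-06), and *C1qc* by 1.30 ± 0.40, 2.68 ± 0.55, and 2.46 ± 0.30 (adjusted p = 0.0115, 0.000627, and 3.85e-07). IgG CL and UUO libraries overlapped for *C1qa* and *C1qc* but not for *C1qb*. In IgG UUO kidneys *C1qc* was at 19.0 to 36.2 CPM in the 4 plain and 8.19 to 13.2 in the 4 linked libraries. Deviations of the chains from their group means correlated weakly across the 75 libraries (Pearson's r = 0.24 for *C1qa* and *C1qb*, 0.35 for *C1qa* and *C1qc*, and -0.05 for *C1qb* and *C1qc*), in counts that were often under 10. The log2 ratio of *C1qa* to *Adgre1* differed between UUO and CL by 0.21 in IgG, 0.10 in VeWT, and 0.12 in PbWT mice (adjusted p = 0.874, 0.908, and 0.908 by the exact permutation test).

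**Figure D2:**
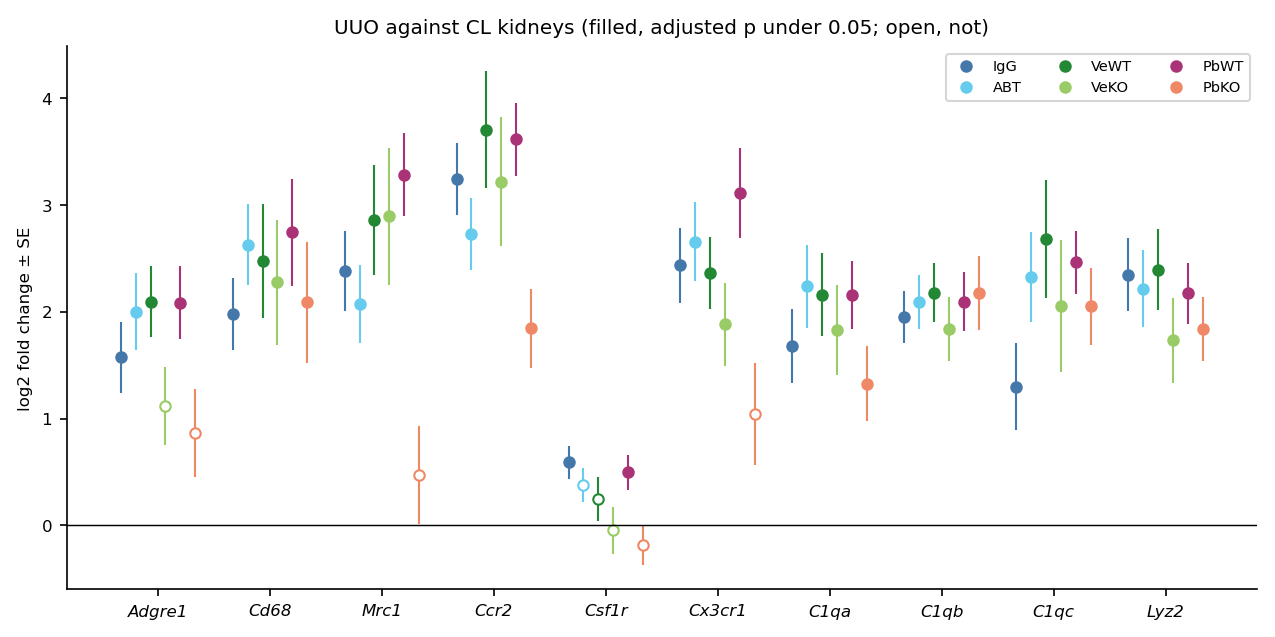
Log2 fold change with SE of each member in UUO against CL kidneys in the 6 treatment or genotype groups, with filled points at an adjusted p under 0.05. In PbKO mice *Mrc1* lies at 0.47 and *Ccr2* at 1.84, below the PbWT values of 3.29 and 3.62, while *C1qb* lies at 2.18 beside 2.10.

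Around the markers, the genes that go with monocyte recruitment and complement rose as well. Of 27 other macrophage and monocyte genes in the table, 13 were tested in the ABTAA arm, and in IgG mice 11 rose and 1, *Mertk*, a receptor for the clearance of dead cells, fell (-0.73 ± 0.23 on the log2 scale, adjusted p = 0.0127, named after its value was seen). *Cd14*, a co-receptor for bacterial lipopolysaccharide, rose by 3.47 ± 0.32 and *Itgam*, encoding CD11b, by 2.62 ± 0.34. The list's median was 2.17 beside 0.01 for all genes. Of the ligands, *Ccl2*, which attracts CCR2-bearing monocytes, rose by 4.73 in IgG, 4.20 in VeWT, and 4.69 in PbWT mice on the log2 scale. The CSF1R ligands *Csf1* and *Il34* and the CX3CR1 ligand *Cx3cl1* rose in IgG mice by 1.76, 2.62, and 1.17. Of 11 other genes of the classical complement pathway in the table, 6 were tested in the ABTAA arm and 6 rose in IgG mice, led by *C3*, the component on which the complement pathways meet, at 5.44 ± 0.36 (adjusted p = 6.04e-14). *C1ra* and *C1s1*, the proteases of the C1 complex, were at 1.85 and 1.51. In PbWT mice 8 of 8 tested rose, and in VeWT mice 5 of 8, where *C4a*, named after its value was seen, was at -1.02 (adjusted p = 0.285).

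Markers of other cells were summed within each library. The pan-leukocyte genes *Ptprc* (CD45), *Cd53*, and *Coro1a* summed to 27.4 to 62.1 CPM in IgG CL and 115 to 237 in IgG UUO. T and NK cell markers summed to 5.74 to 17.1 CPM in IgG CL and 20.7 to 54.3 in IgG UUO, and neutrophil markers to 3.81 to 20.6 and 8.13 to 41.8. Dendritic cell markers summed to 8.61 to 26.3 and 15.6 to 34.8, B and plasma cell markers to 6.84 to 138 and 63.1 to 208, and fat cell markers to 0 to 31.1 and 0 to 93.8. The ranges overlapped for neutrophil, dendritic, B and plasma, and fat cell markers. Of these lists and the T and NK cell markers 1 gene passed the filter on low counts in the ABTAA arm, a B and plasma cell gene at 0.48 that was not called. In the *Veptp* arm 2 dendritic cell genes were tested. Both were called higher in VeWT UUO (1.05 and 2.64), and 1 was in VeKO UUO. Dendritic cell markers summed to 4.56 to 12.9 CPM in VeWT CL and 16.2 to 40.4 in VeWT UUO. Genes of kidney epithelium, checked as the tissue's own markers, summed to 8345 to 11550 CPM in IgG CL and 3898 to 6314 in IgG UUO, and 5 of 8 fell, *Slc12a1*, *Slc12a3*, *Slc34a1*, *Lrp2*, and *Umod*, by 0.73 to 2.16 on the log2 scale. The hemoglobin genes *Hba-a1*, *Hbb-bs*, and *Hbb-bt* were lower in IgG UUO too (-1.28, -1.24, and -1.34). All 8 genes of a tubular injury list that the study chose on these kidneys rose in IgG mice, *Havcr1*, which marks injured proximal tubule, by 7.03 on the log2 scale, which is not independent evidence of their direction. Their part in the marker values was not tested.

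ABTAA-treated against IgG-treated mice asks whether TIE2 activation alters this response. In ABT mice 9 of 10 members rose with UUO, with 12.7% of all genes called higher (1219 higher and 1201 lower, or 1559 and 825 without TMM scaling). *Csf1r* was the exception, at 41.4 to 56.1 CPM in CL and 47.5 to 82.2 in UUO (0.38 ± 0.16, adjusted p = 0.0814). It was called without TMM scaling (0.52, adjusted p = 0.03), with a mean count of at least 20 (0.47, adjusted p = 0.0249), and with a term for the form of name (0.35, adjusted p = 0.0491). The others rose by 2.00 (*Adgre1*) to 2.73 (*Ccr2*). In a fit of the 3 pairs of ABT libraries that share a number alone, with the number as a block, 7 of 7 members tested rose, where 14.4% of all genes did, and *Csf1r* was at 0.58 ± 0.20 (adjusted p = 0.034). In the linked libraries without a block it was at 0.56 (adjusted p = 0.0622). Between the UUO kidneys of the 2 treatments, 0 of 10 members were called and 0% of the 9579 genes, with 344 genes and 0 members at an unadjusted p under 0.05 and 0 members called by DESeq2. The values lay close: *Adgre1* was at 8.90 to 37.6 CPM (median 16.8) in ABT UUO against 15.6 to 43.8 (median 25.3) in IgG UUO, a log2 difference of -0.28 ± 0.30. *Ccr2* was at 8.90 to 72.0 CPM (median 54.6) against 38.6 to 107 (median 49.2), a difference of -0.36 ± 0.27. *Lyz2* was at 167 to 631 CPM (median 359) against 190 to 605 (median 442), a difference of -0.13 ± 0.33. *C1qc* alone leaned the other way, at 9.71 to 33.6 CPM (median 25.0) against 8.19 to 36.2 (median 16.1), a difference of 0.37 ± 0.36. The other 9 members had differences between -0.36 and -0.13, and 4 of these, *Cd68*, *Mrc1*, *C1qa*, and *Lyz2*, changed sign in the linked libraries alone. With single libraries left out, *Adgre1* ran from -0.486 to -0.14, *Lyz2* from -0.298 to -0.00171, and *C1qc* from 0.199 to 0.511. The test of the difference between the 2 responses to UUO called 0 members and 0% of all genes (323 genes at an unadjusted p under 0.05), and so did ABT against IgG CL kidneys (311 genes). DESeq2 called 0 members in either.

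Deletion of *Veptp* in endothelial cells is the genetic route to TIE2 activation. In VeKO mice 8 of 10 members rose with UUO, with 4.47% of all genes called higher (533 higher and 414 lower, or 607 and 244 without TMM scaling). *Adgre1* was at 2.37 to 16.6 CPM (median 7.69) in VeKO CL and 7.54 to 34.3 (median 14.2) in VeKO UUO, a log2 fold change of 1.12 ± 0.36 (adjusted p = 0.0547). Without TMM scaling it was called (1.22, adjusted p = 0.045), as it was with a term for the form of name (1.14, adjusted p = 0.0186). Either way 9 of 10 members were called. In the linked libraries alone (1.22, adjusted p = 0.0798) and the plain ones alone (0.73, adjusted p = 0.866) *Adgre1* was not called. *Csf1r* was at 58.7 to 100 CPM in CL and 35.8 to 111 in UUO (-0.05 ± 0.22, adjusted p = 0.944, and 0.07 without TMM scaling). The largest changes were *Ccr2* at 3.22 ± 0.60 and *Mrc1* at 2.90 ± 0.64 (adjusted p = 0.000685 and 0.00338). *Cx3cr1* was the 1 member whose CL and UUO libraries did not overlap, at 0.961 to 9.03 and 9.70 to 28.7 CPM. The share of all genes without overlap was not counted. VeKO CL replicate 2 was high for *Lyz2* (271 CPM), *C1qa* (36.1), *C1qb* (36.1), *Ccr2* (22.6), *C1qc* (22.6), and *Mrc1* (18.1), at 4.52 CPM per count. Without it, *Adgre1* was called (1.21, adjusted p = 0.038), and *Ccr2*, *Mrc1*, and *Lyz2* were at 3.91, 3.61, and 2.46. *C1qc* (2.06 ± 0.62, adjusted p = 0.0333) lost its call without any 1 of VeKO CL replicates 3, 4, 5, and 6 or VeKO UUO replicates 5, 6, and 7, with log2 fold changes of 1.65 to 2.14 and adjusted p = 0.0521 to 0.0953. *Adgre1* was also called without VeKO CL replicate 5 (1.61, adjusted p = 0.0111), VeKO UUO replicate 4 (1.19, adjusted p = 0.0382), or VeKO UUO replicate 8 (1.25, adjusted p = 0.026). Among linked libraries the numbers 3, 4, 7, and 8 stand for 1 genotype in CL and the other in UUO kidneys by the labels, and what the numbers mark is not given there. Without these libraries, 2 of 10 members were called in VeKO mice, *C1qb* (1.75, adjusted p = 0.0245) and *Cx3cr1* (2.10, adjusted p = 0.0406), where 0.852% of all genes were called higher. The other 6 lost their calls, with *C1qc* lowest at 1.24 (adjusted p = 0.486) and *Mrc1* at 2.46 (adjusted p = 0.091).

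Between VeKO and VeWT UUO kidneys 0 of 10 members and 0% of 11916 genes were called, with 424 genes at an unadjusted p under 0.05, among them the members *Adgre1* and *Mrc1*. DESeq2 also called 0 members. *Adgre1* was at 7.54 to 34.3 CPM (median 14.2) in VeKO UUO and 20.1 to 34.5 (median 28.9) in VeWT UUO, a log2 difference of -0.72 ± 0.30 (unadjusted p = 0.0227, adjusted p = 1.00, edgeR's quasi-likelihood test). *Mrc1* was at 5.71 to 28.7 CPM (median 20.3) against 12.2 to 63.6 (median 36.1), a difference of -0.91 ± 0.44 (unadjusted p = 0.0444, adjusted p = 1.00, same test). For the 10 members the differences ran from -0.91 to -0.10, with a median of -0.39 beside 0.01 for all genes. *Cx3cr1*, *C1qa*, and *Lyz2* were at -0.50 ± 0.30, -0.33 ± 0.34, and -0.45 ± 0.34. The libraries of both groups overlapped for each member.

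Each genotype had 4 UUO libraries of either form of name, and the values differed between the forms. In the 4 plain VeKO UUO libraries *Cd68* was at 0 to 7.85 CPM, and in the 4 linked ones at 25.1 to 47.4 CPM. The corresponding VeWT UUO values were 13.7 to 21.5 and 20.5 to 44.3. The plain VeKO values of *Cd68* rest on 0 to 5 counts per library, with 2 libraries at 0, and the linked ones on 50 to 124 counts. *C1qb* was at 31.5 to 51.4 CPM in plain VeKO UUO and 77.3 to 89.8 in plain VeWT UUO libraries, but at 56.4 to 105 and 58.6 to 91.6 in linked ones. Among the plain libraries, 8 members could be tested and 8 had negative differences, from -1.41 (*C1qc*) to -0.46 (*Csf1r*). Among the linked libraries the 10 differences ran from -0.65 (*Adgre1*) to 0.48 (*Ccr2*), and 4 were positive. No member was called in either set or with the form as a covariate, where *Adgre1* was at -0.66 ± 0.26 (adjusted p = 0.487) and *Mrc1* at -0.68 ± 0.27 (adjusted p = 0.484). In VeKO mice alone, UUO against CL called 8 of 10 members among linked libraries, with 10.1% of all genes called higher. Among the 2 CL and 4 UUO plain libraries it called 0 of 8 members and 0 of 7778 genes (539 genes at an unadjusted p under 0.05), so the latter count does not bear on the members. The test of the difference between the VeKO and VeWT responses called 0 members and 0% of all genes, with 324 genes at an unadjusted p under 0.05. CL kidneys of the 2 genotypes gave 0 calls and 229 such genes, and DESeq2 called 0 members in both.

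**Figure D3:**
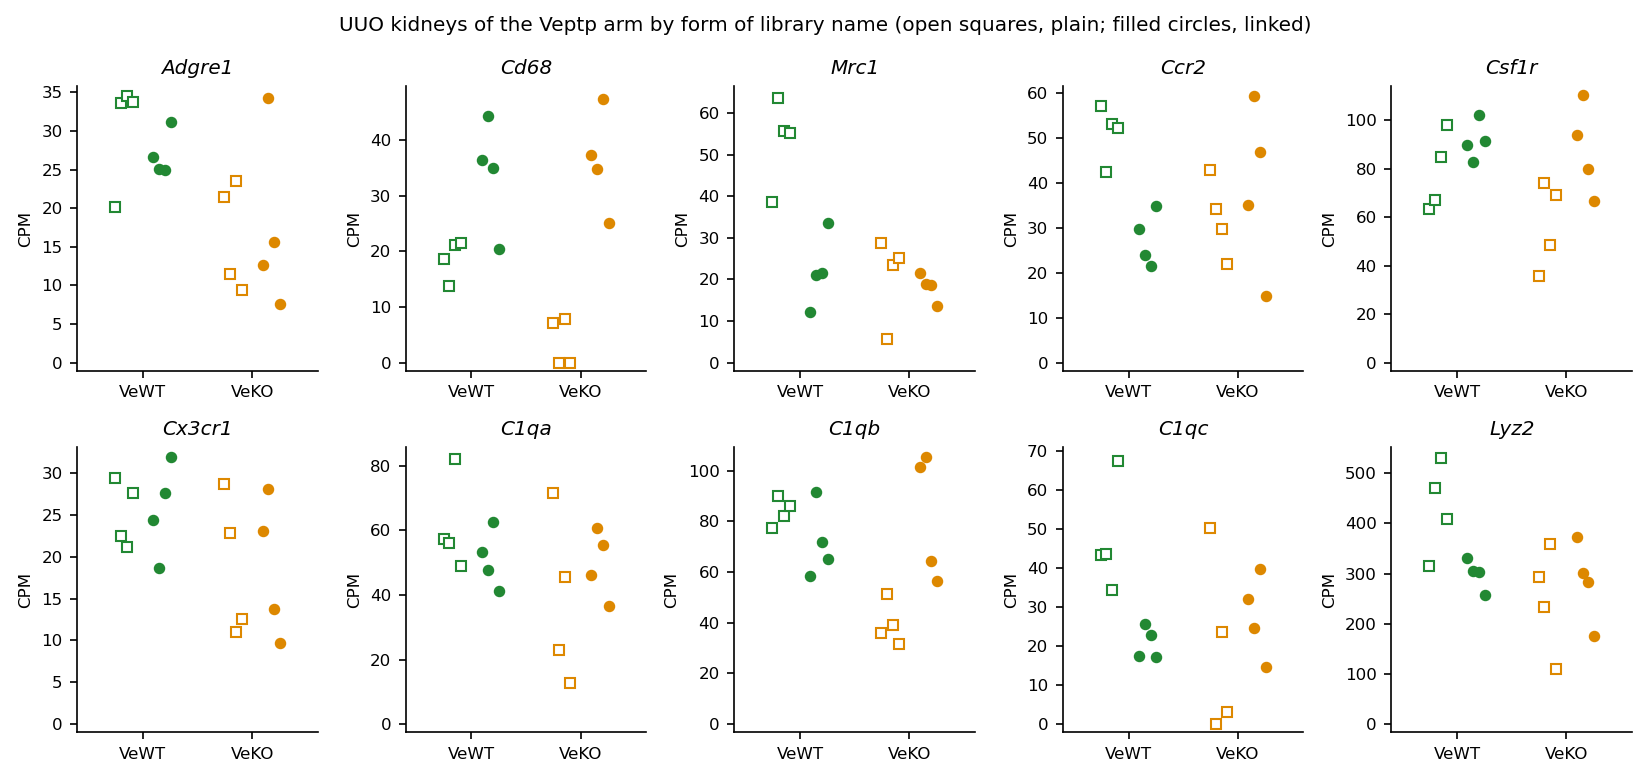
CPM of each member in the 8 VeWT and 8 VeKO UUO libraries, with open squares for the 4 plain and filled circles for the 4 linked libraries of each genotype. *Cd68* in VeKO lies at 0 to 7.85 in the squares, which rest on 0 to 5 counts each, and at 25.1 to 47.4 in the circles. *Mrc1* in VeWT lies at 38.6 to 63.6 and 12.2 to 33.6.

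Deletion of *Pdgfb* asks what the growth factor contributes to the obstructed kidney. The log2 differences between PbKO and PbWT UUO kidneys ran from -1.87 to -0.35 over the 10 members, with a median of -0.70 beside -0.02 for all 10923 genes tested. Of the 10 members 6 were called, where 6.58% of all genes were called lower. *Mrc1*, the mannose receptor, differed most. Its 4 PbKO UUO libraries held 20.0, 12.3, 5.98, and 14.1 CPM against 35.1, 36.9, 34.9, and 70.5 in PbWT UUO, a difference of -1.87 ± 0.32 (adjusted p = 0.000163). *Cx3cr1* was at 3.34, 6.72, 8.54, and 21.1 CPM against 33.2, 28.0, 21.0, and 29.4, a difference of -1.22 ± 0.31 (adjusted p = 0.0071). PbKO UUO replicate 4 was just above the lowest PbWT library here, and the 2 groups of *Mrc1* did not overlap.

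*Ccr2* fell in the same comparison, from 77.2, 55.4, 51.2, and 82.3 CPM in PbWT UUO to 23.4, 28.0, 26.5, and 41.4 in PbKO UUO (-1.07 ± 0.25, adjusted p = 0.0033). *Adgre1* was at 10.0, 13.4, 12.8, and 15.6 CPM in PbKO UUO against 23.8, 24.4, 23.4, and 37.2 in PbWT UUO (-0.96 ± 0.29, adjusted p = 0.0211). For *Csf1r*, 40.0, 40.4, 54.7, and 50.0 CPM stood against 75.9, 78.6, 60.7, and 83.3 (-0.64 ± 0.17, adjusted p = 0.00791). *C1qb* was at 46.7, 54.9, 35.9, and 43.8 CPM against 90.3, 63.1, 57.5, and 94.0 (-0.75 ± 0.24, adjusted p = 0.029). The 2 groups did not overlap for any of these 4 genes, and how many of all genes were apart in this way was not counted. The remaining members overlapped and were not called: *Cd68* (-0.35 ± 0.35, adjusted p = 0.538), *C1qa* (-0.50 ± 0.25, adjusted p = 0.187), *C1qc* (-0.50 ± 0.23, adjusted p = 0.133), and *Lyz2* (-0.46 ± 0.26, adjusted p = 0.236).

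Some of these calls rest on single libraries. *Adgre1* lost its call without PbWT UUO replicate 4 (-0.79, adjusted p = 0.0752), PbKO UUO replicate 2 (-0.95, adjusted p = 0.0579), or PbKO UUO replicate 3 (-0.92, adjusted p = 0.0699). *C1qb* lost its call without PbWT UUO replicate 1 or 4 or PbKO UUO replicate 3 or 4, with differences of -0.73 to -0.63 and adjusted p = 0.0696 to 0.12. *Mrc1*, *Ccr2*, *Csf1r*, and *Cx3cr1* were called without any 1 library, but *Cx3cr1* moved to -1.93 without PbKO UUO replicate 4.

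**Figure D4:**
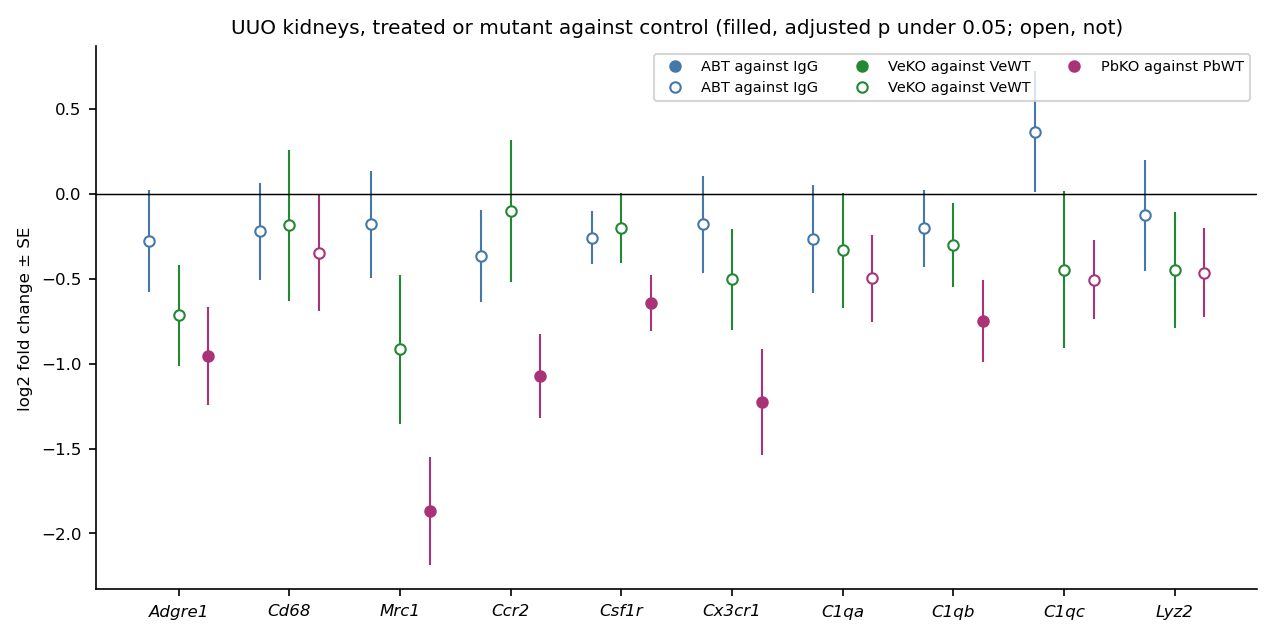
Log2 difference with SE of each member between UUO kidneys of treated or mutant and control mice in the 3 arms, with filled points at an adjusted p under 0.05. The 6 filled points are PbKO against PbWT, with *Mrc1* lowest at -1.87, and every VeKO point lies below 0.

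With UUO, 6 of 10 members rose in PbKO mice, where 3.94% of all genes were called higher (430 higher and 262 lower, or 560 and 156 without TMM scaling). These were *Cd68* (2.09 ± 0.57), *Ccr2* (1.84 ± 0.37), *C1qa* (1.33 ± 0.35), *C1qb* (2.18 ± 0.35), *C1qc* (2.05 ± 0.36), and *Lyz2* (1.84 ± 0.30, adjusted p = 0.0254, 0.00302, 0.0245, 0.000299, 0.000738, and 0.000388). In these mice *Mrc1* was at 15.3, 7.50, 6.80, and 3.99 CPM in CL and 20.0, 12.3, 5.98, and 14.1 in UUO, with overlap and a change of 0.47 ± 0.46 (adjusted p = 0.627). *Adgre1* (0.87 ± 0.41), *Cx3cr1* (1.04 ± 0.48), and *Csf1r* (-0.18 ± 0.19) were not called either (adjusted p = 0.237, 0.218, and 0.644), and *Cx3cr1* was at 0.328 without PbKO UUO replicate 4 and 1.63 without PbKO CL replicate 4. Without PbKO CL replicate 4 *Ccr2* was at 2.46. *Cd68* lost its call without PbKO CL replicate 1, 2, or 4 or PbKO UUO replicate 2 or 4 (1.76 to 2.23, adjusted p = 0.0527 to 0.0861), and *C1qa* without PbKO CL replicate 1 or 3 or PbKO UUO replicate 4 (1.06 to 1.22, adjusted p = 0.07 to 0.119). Tested directly, the difference between the PbKO and PbWT responses was called for 1 member, *Mrc1*, at -2.82 ± 0.66 (adjusted p = 0.00755), where 1.90% of all genes were called lower (728 higher and 207 lower, or 315 and 628 without TMM scaling, which called 4 members). The *Mrc1* values behind it were 3.29 in PbWT and 0.47 in PbKO mice, the latter 0.105 to 1.07 with single libraries left out and highest without PbKO CL replicate 1. DESeq2 called *Ccr2* there and gave no adjusted p for *Mrc1*. Next came *Ccr2* (-1.77 ± 0.57, adjusted p = 0.055), *Cx3cr1* (-2.07 ± 0.71, adjusted p = 0.0731), *Csf1r* (-0.68 ± 0.25, adjusted p = 0.096), and *Adgre1* (-1.22 ± 0.57, adjusted p = 0.208). For *C1qb* this difference was 0.08 ± 0.44 (-0.21 without TMM scaling), with PbKO CL libraries at 16.6, 5.00, 6.80, and 7.97 CPM. *Mrc1* lost the call without PbKO CL replicate 1, its highest CL library (-2.20, adjusted p = 0.0671). *Ccr2* was called without PbWT CL replicate 2, PbKO CL replicate 1 or 2, PbWT UUO replicate 3, or PbKO UUO replicate 4 (-2.32 to -1.88, adjusted p = 0.0178 to 0.0433), and *Cx3cr1* without PbKO UUO replicate 4 (-2.78, adjusted p = 0.00729). Without PbKO CL replicate 4 both were closer to 0, *Ccr2* at -1.15 and *Cx3cr1* at -1.48. No member differed between PbKO and PbWT CL kidneys, where 0% of all genes were called (378 at an unadjusted p under 0.05, and 0 members by DESeq2). The PbWT CL group includes kidneys of 2 sham-operated mice, so the 2 responses have unlike baselines, and the effect of this was not tested. In PbKO mice the log2 ratio of *Mrc1* to *Adgre1* was 0.91 ± 1.80 in CL and -0.08 ± 0.79 in UUO (SD, n = 4 each), a difference of -0.98 (adjusted p = 0.594, exact permutation test) that was -0.256 without PbKO CL replicate 2 and -1.71 without PbKO CL replicate 4.

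The wider lists differed between PbKO and PbWT UUO kidneys as well. Of 14 other macrophage and monocyte genes tested 10 were lower, with a median of -0.96, among them *Ctss*, encoding the protease cathepsin S (-1.08 ± 0.19, adjusted p = 0.000181), *Cd14* (-1.48 ± 0.31, adjusted p = 0.00118), and *Fcgr3*, a receptor for IgG (-1.07 ± 0.23, adjusted p = 0.00147). The pan-leukocyte genes *Ptprc*, *Coro1a*, and *Cd53* were lower (-1.11, -0.69, and -1.18). In the complement list 5 of 8 were lower, with *C1ra* at -1.10 and *C3* at -1.11, while *C4a* and *C4b*, named after their values were seen, were at 0.11 and 0.01. Of 4 ligands tested *Csf1* was lower (-0.94 ± 0.33, adjusted p = 0.046), and *Ccl2*, named after its value was seen, was at 0.00 ± 0.21 (adjusted p = 0.999).

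**Figure D5:**
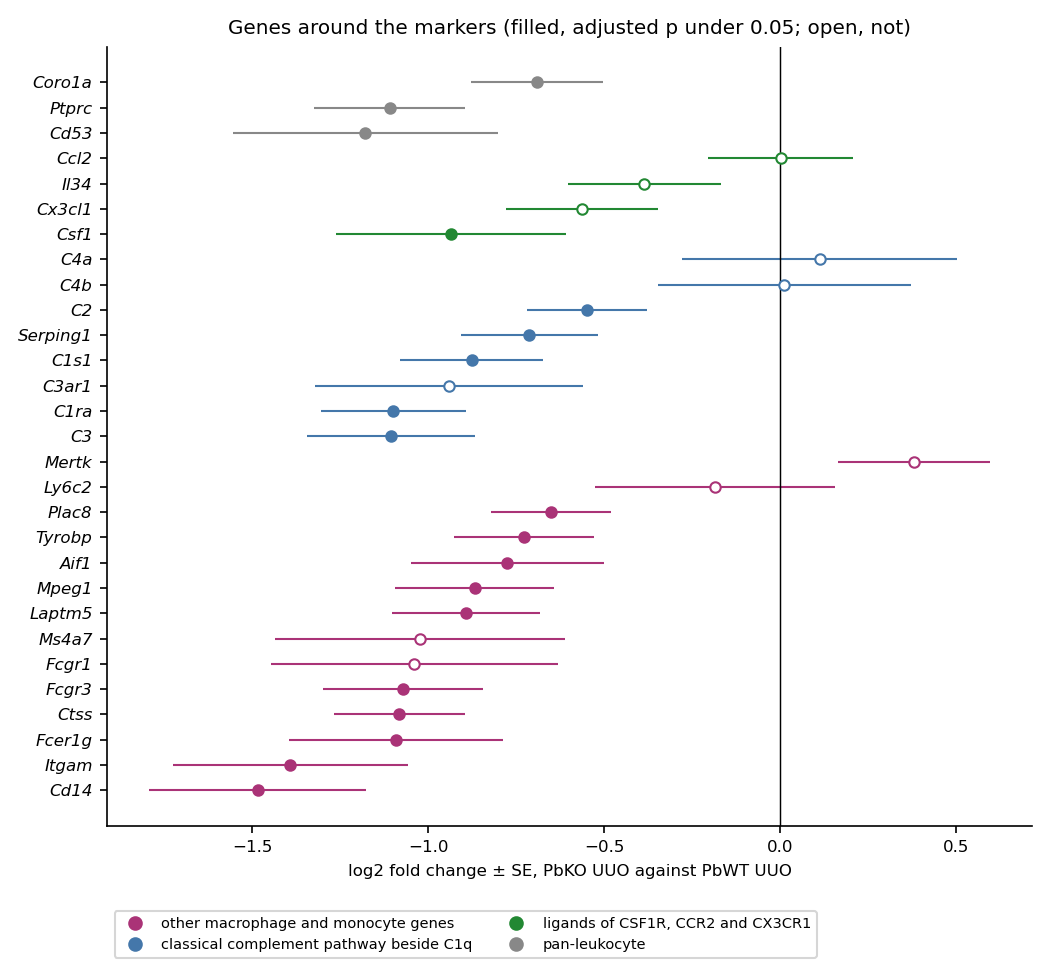
Log2 difference with SE between PbKO and PbWT UUO kidneys for the tested genes of 4 lists, with filled points at an adjusted p under 0.05. In the macrophage list 10 of 14 points are filled and below 0, from *Cd14* at -1.48 to *Plac8* at -0.65, and *Ccl2* lies at 0.

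Markers of other cells and of tubular injury also differed in this comparison. The injury list that the study chose on these kidneys summed to 2031 to 2524 CPM in PbKO UUO and 3104 to 3733 in PbWT UUO, with no overlap. Its 8 differences were negative (median -0.51) and 2 were called, *Piezo1*, a mechanosensitive ion channel (-0.95, adjusted p = 0.000401), and *Rela*, a subunit of NF-κB (-0.55, adjusted p = 0.0309), which is not independent evidence of their direction. Kidney epithelial markers summed to 5130 to 8260 CPM in PbKO UUO and 3153 to 3837 in PbWT UUO, and 5 of 8 were higher, *Slc34a1*, the phosphate transporter of proximal tubule, by 1.75 ± 0.19 on the log2 scale. The other 4 were *Slc12a1*, *Slc12a3*, *Lrp2*, and *Umod* (1.28, 1.25, 0.82, and 0.61). Red cell markers summed to 564 to 835 CPM against 319 to 424, and *Hba-a1*, *Hbb-bs*, and *Hbb-bt* were higher (0.87, 0.92, and 1.07). T and NK cell markers summed to 10.1 to 23.4 CPM against 24.5 to 30.1, and neutrophil markers to 3.34 to 11.7 against 9.41 to 29.8. The PbKO UUO libraries held 337545 to 1249343 counts and the PbWT UUO libraries 888357 to 2049326. Without TMM scaling the all-gene median here was -0.28 instead of -0.02, 667 genes were called higher and 2378 lower instead of 1315 and 719, and 9 members instead of 6 were called lower. Their part in the marker values was not tested.

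Across all 75 libraries, after removal of the means of group and form of library name, genes of at least 20 CPM whose log2 values closely followed the mean of the 10 members were *Tagln*, a smooth muscle and myofibroblast protein (Pearson's r = 0.74), *Gm48529* (0.73), *Dcn*, encoding the matrix proteoglycan decorin (0.72), and *Cpxm1* (0.71), out of 7841 candidates. The libraries share depth and composition effects, so these values describe likeness of pattern alone.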

How the data were processed

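RNA of 75 mouse kidneys was sequenced with Smart-seq3 chemistry. The authors ran each sample in 4 wells, merged the reads, mapped them with STAR 2.7.3a to mm10, removed duplicates by molecular identifiers with UMI-tools 1.1.4, and counted with featureCounts of Subread 1.4.6-p5 (versions and build from the paper's methods and the submitters' processing notes). The annotation and strand setting are not stated there. The deposited counts are whole numbers per gene, not normalized. All 75 columns were matched to samples by title.

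Each arm was fitted over its 4 groups in R 4.3.3 with edgeR 4.0.16 (TMM, filterByExpr, glmQLFit, glmQLFTest), with Benjamini-Hochberg adjustment over all genes tested and a threshold of 0.05. The SE of a log2 fold change is its size over the square root of F. CPM used library totals times TMM factors. Ratios used a pseudocount of 1 CPM and exact 2-sided permutation tests (Python 3.11.15, pandas 2.3.3, scipy 1.17.1, numpy 2.4.6), and figures matplotlib 3.10.9. The exact test of edgeR, which the study's methods give, was run as an alternative, as were DESeq2 1.42.0, no TMM, other filters, the compared groups alone, thinning, forms of library name, and single libraries left out. The procedure was tested on simulated data. The rule for named genes took the 10 members, of which some comparisons give ranges and counts alone, and from each list its counts and a few of the called genes with the lowest adjusted p.

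The members and lists were chosen with earlier results of these data known, and the tubular injury list is the study's own. Results of 1 gene are not reported here. Replicates are libraries labelled as separate samples, and labels do not tie CL to UUO kidneys of a mouse. Numbers in library names that ABT CL and UUO libraries share were taken as pairs because deviations from group means of the 3 pairs correlated at 0.16 to 0.387. Intervals between libraries cover their spread alone.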

Additional observations from a re-analysis of the deposited data

Results flagged for a closer look

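The difference between the UUO responses of PbKO and PbWT mice passed the test for *Mrc1*, at -2.82 on the log2 scale, and lost it without PbKO CL replicate 1. The PbWT CL group behind it includes kidneys of 2 sham-operated mice.

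In 120 sets of 1 member in 1 group, 11 libraries stood apart by Dixon's criterion, which chance meets in about 1 in 20 sets. In the VeKO CL group replicate 2 did so for *Ccr2* (22.6 CPM), *Mrc1* (18.1), and *Lyz2* (271). PbWT UUO replicate 4 stood apart for *Adgre1* (37.2 CPM) and *Mrc1* (70.5). The others were *Adgre1* in an ABT CL library (10.9 CPM), *C1qa* in a PbWT CL (3.14) and a VeWT CL library (33.6), *Ccr2* in an IgG CL library (17.3), *Cd68* in an ABT UUO library (25.2), and *Lyz2* in an ABT CL library (206).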

How the results depend on the processing

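Of the 3985 recomputed values 3838 kept their direction and side of the threshold or, for counts of members called, stayed near the main count. Members that failed a filter gave no value, and fits with single libraries left out share most of their libraries. Smaller changes in counts of members called included 6 of 9 in VeKO by the exact test, where 361 of 10713 genes were called higher. PbKO against PbWT UUO gave 7 of 10 without a filter and by the exact test. There 847 of 25061 and 960 of 11249 genes were called lower. Larger changes were as follows. With a mean count of at least 20, 3 of 3 were called in IgG and in ABT, 5 of 6 in VeWT and in VeKO UUO against CL, and 2 of 7 in the difference between the PbKO and PbWT responses. Of all genes, 1116 of 5682 were then called higher in IgG, 776 in ABT, 810 of 8621 in VeWT, and 354 in VeKO, and 230 of 7836 lower in the difference. The exact test of edgeR and the compared groups alone each gave 5 of 5 in IgG and 4 of 5 in ABT, and the latter 5 of 9 in VeKO. Of all genes, the exact test called 1281 of 7325 higher in IgG and 988 of 8667 in ABT, and the groups alone 1256 of 7325, 961 of 8667, and 263 of 10713 in VeKO. Thinning to the shallowest library of the arm left 3 of 4 in IgG, ABT, and VeWT, 2 of 4 in VeKO, and 6 of 6 in PbWT, beside 761 and 491 of 4574, 409 and 137 of 5784, and 1005 of 7507 genes called higher in IgG, ABT, VeWT, VeKO, and PbWT. VeKO gave 0 of 8 among plain libraries, where 0 of 7778 genes were called, and 2 of 10 without numbers that carry 2 genotypes, where 94 of 11034 genes were called higher. The difference between PbKO and PbWT responses gave 4 without TMM scaling (628 of 10923 genes lower) and 3 without a filter (208 of 25061). It gave 1 to 3 with single libraries left out, for which the counts over all genes were not kept. For these the cause was not tested beyond the numbers of members and libraries.

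Signs changed as follows. ABT against IgG UUO in linked libraries gave 0.083 (*Cd68*), 0.12 (*Mrc1*), 0.073 (*C1qa*), and 0.11 (*Lyz2*), and thinning 0.034 (*Csf1r*). *Csf1r* in VeKO UUO against CL was 0.069 without TMM scaling, 0.032 with the form as a covariate, 0.053 in linked libraries, 0.19 after thinning, and -0.16 to 0.042 with single libraries left out. *C1qc* was -0.066 there in plain libraries. VeKO against VeWT UUO gave *Ccr2* 0.10 with the form as a covariate, in linked libraries *Cd68* 0.10, *Ccr2* 0.48, *C1qb* 0.17, and *C1qc* 0.41, after thinning *Csf1r* 0.0030, and *Ccr2* -0.28 to 0.036 with single libraries left out. *C1qb* in the difference between PbKO and PbWT responses was -0.21 without TMM scaling and -0.20 to 0.56 with single libraries left out. The log2 ratio of *Ccr2* to *Cx3cr1* in ABT was -0.19 with a pseudocount of 0.5 CPM, and -0.22 to 0.33 with single libraries left out. That of *C1qa* to *Adgre1* in PbKO was 0.21 with a pseudocount of 5 CPM, and single libraries left out gave -0.87 to 0.67 in PbKO, -0.25 to 0.37 in PbWT, -0.12 to 0.36 in VeWT, and -0.012 to 0.41 in IgG. The *Ccr2* to *Cx3cr1* ratio in VeKO ran from 1.12 to 1.60 and was called without VeKO CL replicate 2.

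In the *Veptp* arm the 8 linked pairs of equal number had correlations of 0.0582 to 0.426 and 4 of 8 were best with their own number, so the number was not taken as a pairing. With it as a replicate block 9 of 10 members rose in VeWT and 9 of 10 in VeKO, beside 1425 and 1472 of 12556 genes called higher, *Csf1r* in VeKO was at 0.11, and VeKO against VeWT UUO gave *Cd68* 0.43, *Ccr2* 0.51, and *C1qb* 0.43, with 0 members called. The block in ABT was fitted on its 3 pairs alone, so that the call of *Csf1r* there cannot be put down to the block. No paired analysis was possible for IgG and *Pdgfb* libraries because their groups share no numbers. Low counts limit *Cd68*, *Cx3cr1*, and *C1qc*, with fewer than 10 counts in 51, 49, and 45 of 75 libraries.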
